A study of Mus musculus with 33 samples.

Results

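The 4 myocyte enhancer factor 2 genes, Mef2a, Mef2b, Mef2c and Mef2d, and the 4 class IIa histone deacetylase genes, Hdac4, Hdac5, Hdac7 and Hdac9, were followed across every genotype and sleep condition of an RNA-seq study of mouse frontal cortex. They were taken by symbol from the 21565 genes of the expression table, so that their 8 rows are the whole of both families. MEF2 proteins are transcription factors that bind A/T-rich sites through a MADS domain and regulate activity-dependent genes, dendritic spines and synapse number in neurons. Class IIa deacetylases have little enzyme activity of their own. They bind MEF2 on DNA, bring in corepressors, and leave the nucleus bound to 14-3-3 proteins once calcium-regulated kinases phosphorylate them, whereas the phosphatase calcineurin dephosphorylates MEF2 proteins. In forebrain neurons Mef2c, Mef2a and Mef2d are the MEF2 genes mainly in use, and Hdac4, Hdac5 and Hdac9 are studied for their parts in memory, reward and dendrite growth. Hdac7 is best known from endothelial cells and thymocytes.

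Frontal cortex was collected from adult male mice on a C57BL/6J background, all at zeitgeber time 6 after housing in constant darkness, and 33 libraries fell into 7 groups. Wild-type (WT) mice slept ad libitum (control sleep, CS, n = 6), were kept awake for 6 hr on a slow treadmill (sleep deprived, SD, n = 7), or had a shorter deprivation followed by 2 hr of recovery sleep (RS, n = 7). Floxed mice (Mef2c f/f) carried loxP sites around the second coding exon of Mef2c and no Cre, and were sampled in CS (n = 4) and SD (n = 3). Conditional knockouts (Mef2c-cKO) carried the same floxed allele plus Camk2a-Cre, whose promoter is active in excitatory neurons of the forebrain, and were sampled in CS (n = 3) and SD (n = 3). The methods of the study add that the allele had also recombined in the germline of some knockout animals, that the CS group held animals with and without such recombination in the tail, and the labels do not say which libraries these were. Labels number samples within a group without naming litters or collection days, so that p-values below measure the spread between these samples.

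Levels are given as CPM (read counts scaled to the size of each library) divided by a median-of-ratios factor for each library, hereafter rescaled CPM. The factor sets the libraries to a common scale of their typical genes. Group median depth lay between 29639972 reads in Mef2c-cKO SD and 127814796 reads in WT RS, and single libraries between 18935045 and 249046089 reads. Markers of excitatory neurons were present in all libraries, with summed levels of 875 to 1220 in WT CS and 996 to 1561 in WT SD. WT and floxed libraries differed as sets: 580 genes with a mean CPM of at least 1 in WT were listed at 0 in all 13 Mef2c f/f and Mef2c-cKO libraries, and 7 genes the reverse. Cohort and genotype can therefore not be told apart between WT and Mef2c f/f, and their levels are set side by side with no test. In bulk tissue, fewer cells of a type and less RNA per cell cannot be told apart either.

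The second coding exon encodes much of the MADS domain with which MEF2 proteins bind DNA, and it is the exon that Cre removes from Mef2c. It is printed for the 4 MEF2 genes to show how alike the removed stretch is in the paralogs that stay intact. Each is 204 nt long, runs 5′ to 3′ on the coding strand, and was read from the GRCm38 genome, and capitals in the 3 paralogs mark bases that differ from Mef2c.
Mef2c, chr13:83592778-83592981, plus strand: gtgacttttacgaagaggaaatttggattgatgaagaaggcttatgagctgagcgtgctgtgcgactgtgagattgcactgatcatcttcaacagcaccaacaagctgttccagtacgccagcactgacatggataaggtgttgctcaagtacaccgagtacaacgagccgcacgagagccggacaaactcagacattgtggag
Mef2a, chr7:67295375-67295578, minus strand: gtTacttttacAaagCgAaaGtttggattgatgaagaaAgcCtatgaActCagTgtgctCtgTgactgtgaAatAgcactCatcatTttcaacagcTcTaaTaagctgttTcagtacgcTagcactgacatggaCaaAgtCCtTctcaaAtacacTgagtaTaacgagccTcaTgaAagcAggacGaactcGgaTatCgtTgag
Mef2b, chr8:70165048-70165251, plus strand: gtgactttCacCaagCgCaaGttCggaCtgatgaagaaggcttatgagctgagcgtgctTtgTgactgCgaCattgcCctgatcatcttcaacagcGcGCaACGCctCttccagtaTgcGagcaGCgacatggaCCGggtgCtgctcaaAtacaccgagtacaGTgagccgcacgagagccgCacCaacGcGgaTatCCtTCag
Mef2d, chr3:88156322-88156525, plus strand: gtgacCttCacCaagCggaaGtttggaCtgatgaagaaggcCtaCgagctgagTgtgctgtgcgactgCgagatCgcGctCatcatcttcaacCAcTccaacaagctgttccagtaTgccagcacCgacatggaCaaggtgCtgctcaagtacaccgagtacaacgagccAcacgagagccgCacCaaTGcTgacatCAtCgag
Mef2d differed from Mef2c at 29 of these bases (85.8% identity), Mef2a at 38 (81.4%) and Mef2b at 40 (80.4%). Among annotated transcripts with a second coding exon, the exon printed is that second coding exon in 23 of 27 of Mef2c, 7 of 8 of Mef2a, all 5 of Mef2b and all 4 of Mef2d. It makes up 1.30% of the exonic length of Mef2c, so a count over the whole gene is no check of its removal.

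The MEF2 genes lie on 4 chromosomes (GRCm38, GENCODE M21): Mef2c (ENSMUSG00000005583.16) at chr13:83504034-83667080 on the plus strand, Mef2a (ENSMUSG00000030557.17) at chr7:67231163-67372858 on the minus strand, Mef2d (ENSMUSG00000001419.17) at chr3:88142372-88172086 on the plus strand, and Mef2b (ENSMUSG00000079033.10) at chr8:70139711-70167488 on the plus strand. The deacetylase genes lie on a further 4: Hdac4 (ENSMUSG00000026313.16) at chr1:91928779-92195699, Hdac5 (ENSMUSG00000008855.17) at chr11:102194432-102230166, Hdac7 (ENSMUSG00000022475.19) at chr15:97792664-97844502 and Hdac9 (ENSMUSG00000004698.10) at chr12:34047580-34917095, all on the minus strand. The GC content of their transcripts spread widely around the median of 49.4% over annotated genes. Mef2c (40.8%), Mef2a (42.0%) and Hdac9 (45.03%) were below it, and Hdac4 (52.5%), Mef2d (55.0%), Hdac5 (58.8%), Hdac7 (58.9%) and Mef2b (64.2%) above it. Mef2a, Mef2b, Hdac4, Hdac5 and Hdac9 overlap other gene models on the same strand, so that reads there are uncertain, and Mef2c, Mef2d and Hdac7 do not.

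Because class IIa deacetylases are recruited through MEF2 itself, the promoters of the members were searched for the MEF2 site, CTANNNNTAG with A or T at each of the 4 middle positions, a palindrome that reads alike on both strands. A site of this form was found in 2 of 14 promoter windows of the 8 genes, each 250 bases before to 50 after a RefSeq start, 1 in Mef2a and 1 in Hdac5. The stretches below (GRCm38.p6, RefSeq, 80 nt each, on the coding strand) show them with the site in capitals.
Mef2a, chr7:67372839-67372918, minus strand: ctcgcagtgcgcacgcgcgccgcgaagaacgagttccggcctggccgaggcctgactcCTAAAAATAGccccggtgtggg
Hdac5, chr11:102230153-102230232, minus strand: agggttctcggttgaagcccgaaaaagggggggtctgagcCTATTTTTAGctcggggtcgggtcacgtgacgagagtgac
Of all 32851 promoters, 183 (0.557%) held such a site and 1211 (3.69%) held CTANNNNTAG with any middle bases, the latter including 1 promoter of Hdac9. The matches describe these letters and were not tested for binding.

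Mef2c was the most abundant of the MEF2 genes per unit length in every group. In WT CS its level lay between 1085 and 2019, with a median of 1345 rescaled CPM, in WT SD between 682 and 970, with a median of 817, and in WT RS between 647 and 1213, with a median of 976. In Mef2c f/f CS the 4 libraries held 1207, 1098, 1203 and 1080, and in Mef2c f/f SD the 3 libraries held 1250, 1135 and 1406. All WT SD libraries were below all WT CS libraries, whereas the Mef2c f/f groups overlapped.

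In the knockouts, where the gene was the target, Mef2c gave 957, 1608 and 1727 rescaled CPM in CS and 1500, 1116 and 1317 in SD. These values spanned those of Mef2c f/f, with the lowest Mef2c-cKO CS library below every Mef2c f/f library and the other two above every one. Among the 7 group means of Mef2c, WT CS and Mef2c-cKO CS were highest and WT SD lowest, a range of 1.76-fold.

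Mef2a was spread most in WT CS, where its level lay between 249.7 and 595, with a median of 330. It lay between 170 and 245 in WT SD (median 226) and between 175 and 456 in WT RS (median 219). WT SD lay wholly below WT CS, and WT RS overlapped both. The Mef2c f/f CS libraries held 231.5, 207.7, 233.2 and 188.6 and the SD libraries 218.7, 217.4 and 248.7, while Mef2c-cKO held 237.0, 227.5 and 242.8 in CS and 249.1, 262.5 and 232.7 in SD. All 13 were below the mean of WT CS, 358 ± 128 (SD, n = 6).

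Mef2d went the other way in WT mice, from 89.4 to 145.6 in CS (median 126) to 126 to 163 in SD (median 149.8) and 126 to 156 in RS (median 144). The CS and SD ranges overlapped. Mef2c f/f held 115.0, 137.9, 130.0 and 157.7 in CS and 132.4, 133.7 and 124.0 in SD, and Mef2c-cKO held 129.8, 128.4 and 132.5 in CS and 123.1, 139.7 and 136.5 in SD. Its group means spanned 1.26-fold, less than those of any other member measured in all 7 groups.

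Mef2b, a MEF2 gene best known from B cells, was at the lower edge of detection by CPM, at 2.62 to 4.36 in WT CS (median 3.68), 3.47 to 4.45 in WT SD (median 3.99) and 3.04 to 4.13 in WT RS (median 3.80). These levels rest on 106 to 855 reads per library. It was listed at 0 in all 13 Mef2c f/f and Mef2c-cKO libraries, as were the genes noted above, so it was compared only in WT. Its exons share 62 of 1404 nt (4.42%) with Borcs8, a lysosome-positioning gene on the same strand, and reads there could be split between them.

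Hdac9, the most abundant class IIa gene per unit length, lay between 421 and 638 in WT CS (median 442), between 211 and 335 in WT SD (median 251.4) and between 227 and 433 in WT RS (median 322). WT SD was wholly below WT CS, and RS fell between them with some overlap of both. Mef2c f/f CS held 269.6, 261.0, 535.9 and 233.4, and 1 library stood far above the other 3. Mef2c f/f SD held 233.1, 185.2 and 237.4, and Mef2c-cKO held 243.0, 230.0 and 228.9 in CS and 259.0, 185.7 and 292.6 in SD. Its group means covered the widest range of all members, 2.20-fold.

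Hdac5 had the reverse order, with 25.6 to 90.5 in WT CS (median 64.9), 76.7 to 136 in WT SD (median 119.8) and 84.4 to 149 in WT RS (median 103). WT CS overlapped both other groups at its upper end. Mef2c f/f held 78.1, 103.5, 102.4 and 131.9 in CS and 95.7, 91.9 and 80.7 in SD, and Mef2c-cKO held 91.4, 111.8 and 91.7 in CS and 108.0, 94.3 and 112.3 in SD. The mean of WT CS, 62.8 ± 26.2 (SD, n = 6), was the lowest of the 7 groups.

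Hdac4 was close to level, at 116 to 214 in WT CS (median 167), 123 to 203 in WT SD (median 155) and 129 to 165 in WT RS (median 147). It held 158.2, 178.2, 230.1 and 195.7 in Mef2c f/f CS, 169.8, 167.3 and 162.0 in Mef2c f/f SD, 131.0, 148.8 and 160.6 in Mef2c-cKO CS, and 151.0, 144.0 and 163.7 in Mef2c-cKO SD. Only 1 Mef2c-cKO CS library reached the lowest Mef2c f/f CS library.

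Hdac7, the scarcest of the deacetylases per unit length, rested on 370 to 4089 reads per library. In WT it lay between 8.66 and 27.1 in CS (median 19.3), 14.1 and 26.6 in SD (median 21.96), and 16.9 and 23.3 in RS (median 18.8). Mef2c f/f held 27.4, 27.5, 26.7 and 25.8 in CS and 21.5, 22.6 and 21.2 in SD, whereas Mef2c-cKO held 13.999, 17.5 and 12.4 in CS and 15.1, 11.4 and 16.7 in SD. All knockout libraries were below all floxed libraries.

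**Figure D1:**
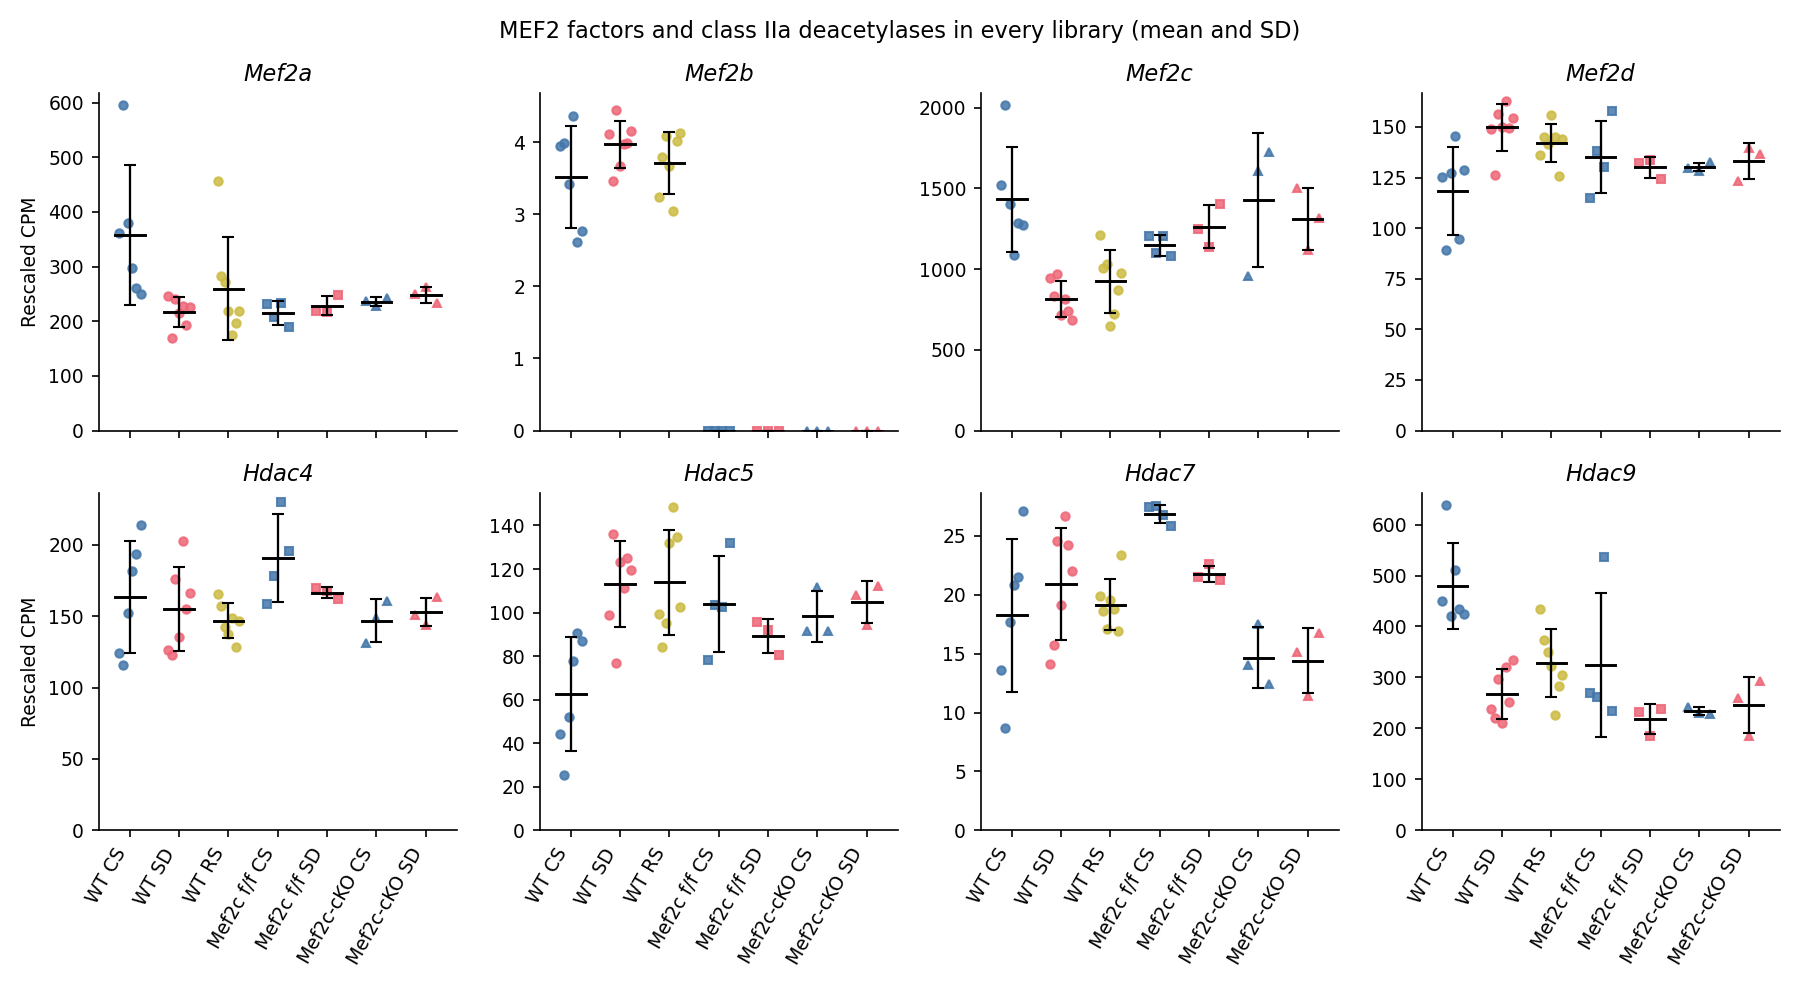
Rescaled CPM (linear axes starting at 0, each gene on its own scale) of the 8 members in each of the 33 libraries, with each point a library, each long bar a group mean and each error bar the SD. Mef2a and Hdac9 sit highest in WT CS, Hdac5 sits lowest there, Mef2b is listed at 0 in all floxed and knockout libraries, and Hdac7 is lower in both Mef2c-cKO groups (means of 14.6 and 14.4) than in both Mef2c f/f groups (26.9 and 21.8).

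When the 7 groups were put in order of their mean for each gene measured in all of them, most neighbours were not apart by more than the larger of their SDs: 4 of 42 neighbouring pairs were. These were Mef2c f/f CS above WT RS for Mef2c, Mef2c f/f SD above WT CS for Hdac5, Mef2c f/f CS above Mef2c f/f SD for Hdac7, and WT CS above WT RS for Hdac9. A single library recurred at the ends of the WT CS group. Library 2 held the highest Mef2a, Mef2c and Hdac9 and the lowest Mef2d, Hdac4, Hdac5 and Hdac7 of its 6, that is an extreme for 7 of 8 members, and the called changes of members against WT CS are also given without it. It was not the only division of that group. Libraries 1, 2 and 3 held more Mef2a and Mef2c and less Hdac4, Hdac5 and Hdac7 than libraries 4, 5 and 6, without overlap. Hdac5 was at 44.1, 25.6 and 52.1 against 77.7, 90.5 and 87.0. Mef2b, Mef2d and Hdac9 overlapped between these sets. Leaving out library 2 does not remove this division.

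Per kilobase of all annotated exons, Mef2c made up most of the MEF2 transcripts (Mef2b left out, since it was listed at 0 in floxed mice). Its share was 67.1% ± 3.64 (SD, n = 6) in WT CS, 56.4% in WT SD and 58.4% in WT RS, against 66.2% and 68.2% in Mef2c f/f CS and SD and 69.7% and 67.8% in Mef2c-cKO CS and SD. Mef2d held 15.2% in WT CS, 27.4% in WT SD and 24.3% in WT RS, and Mef2a 17.6%, 16.1% and 17.3%. Exons of Mef2d cover 5985 nt and those of Mef2c 15715 nt. When 1 transcript a gene set the lengths (5401 and 6277 nt), a choice made after seeing the data, Mef2d held 7.35% in WT CS and 14.2% in WT SD and Mef2c 72.5% and 65.9%, so that the shift from CS to SD had the same direction while Mef2d stayed below Mef2a (20.1% and 19.9%).

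Among the deacetylases, Hdac9 held 62.0% of the rescaled CPM per kilobase of exon in WT CS and 41.3% in WT SD, and Hdac5 held 13.4% and 29.6%. In WT RS the shares were 46.8% for Hdac9 and 27.6% for Hdac5. Hdac9 and Hdac5 held 43.2% and 24.3% in Mef2c f/f CS and 38.3% and 26.2% in Mef2c f/f SD. Hdac9 thus had its highest and Hdac5 its lowest share in WT CS, with 1 transcript a gene as well (61.9% and 13.1%). Hdac7 held at most 8.3% in any group, and less in Mef2c-cKO (5.60% in CS and 5.24% in SD) than in Mef2c f/f (8.23% and 8.3%). These shares restate the levels above and were not tested on their own.

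**Figure D2:**
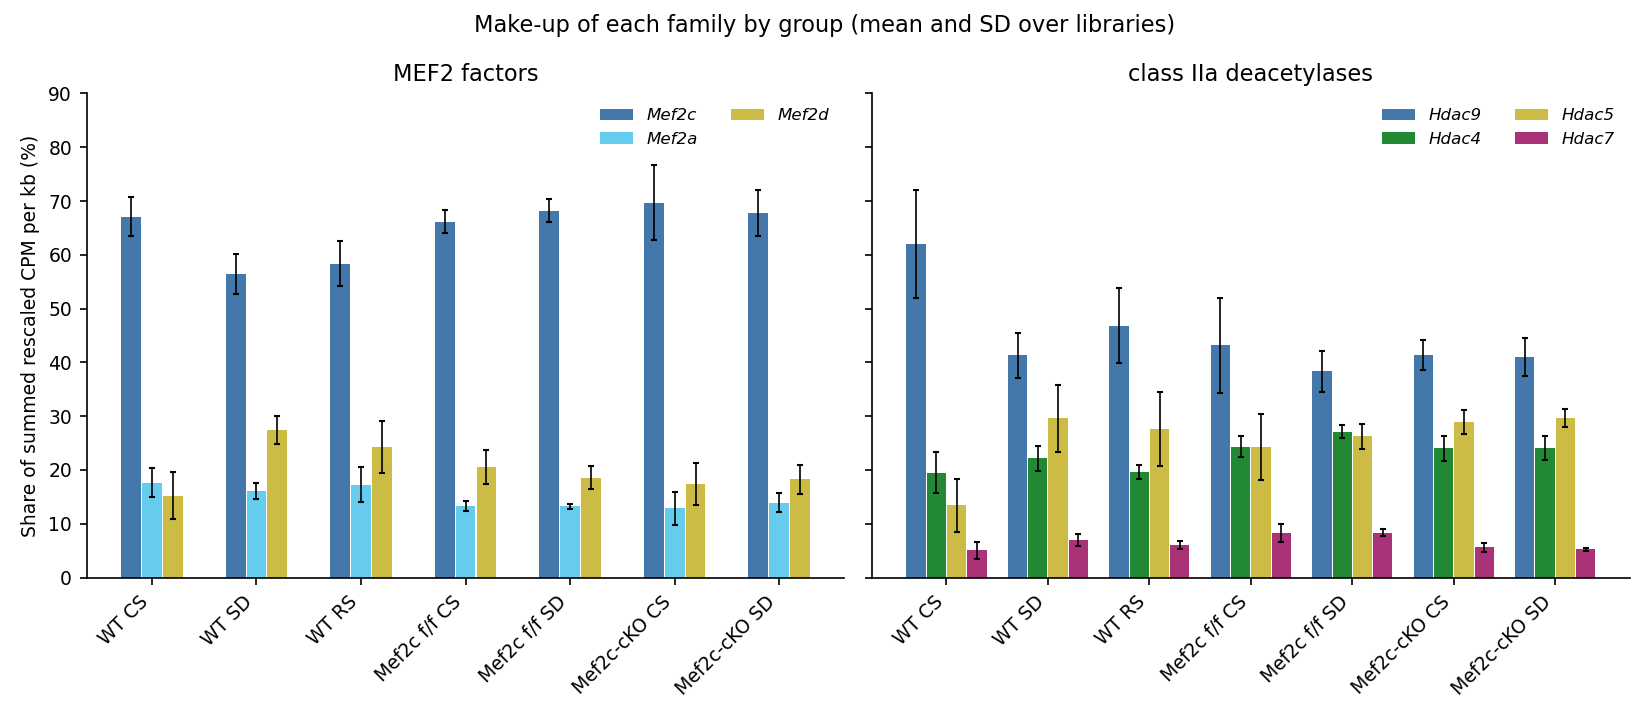
Mean share (percent, bars starting at 0, error bars SD over libraries) of each gene in its family's rescaled CPM per kilobase of annotated exon, for the 7 groups. WT SD and WT RS hold less Mef2c and more Mef2d than WT CS, and less Hdac9 and more Hdac5.

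The first comparison asked what 6 hr of enforced waking did to these genes in WT mice. Mef2a, Mef2c and Hdac9 fell and Mef2d and Hdac5 rose, so that 5 of 8 members were called (limma, a Benjamini-Hochberg adjusted p no larger than 0.05 with a log2 change of 0.3 or more either way). Over all 12913 genes tested, 45.1% were called, 24.6% higher and 20.5% lower, and the members' count is to be read against that share. With CPM as deposited the split was 47.3% higher and 6.2% lower, where the median of all genes shifted by 0.30 on the log2 scale against 0.04 after rescaling. Groups of libraries did not overlap for Mef2a, Mef2c and Hdac9, against 15.1% of all genes.

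In WT SD, Hdac9 fell to 0.557 of its CS level (log2 fold change −0.84 ± 0.13 SE, adjusted p = 0.000724). Mef2c fell to 0.576 (−0.80 ± 0.13, adjusted p = 0.00109), and Mef2a to 0.631 (−0.67 ± 0.17, adjusted p = 0.00791). Hdac5 rose 1.93-fold (0.95 ± 0.25, adjusted p = 0.00888) and Mef2d 1.28-fold (0.35 ± 0.11, adjusted p = 0.0184). Mef2b (0.17, adjusted p = 0.219), Hdac7 (0.24, adjusted p = 0.367) and Hdac4 (−0.07, adjusted p = 0.740) did not pass. Both families thus held members that fell beside members that rose.

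The direction of these changes ran with base composition. Across genes, the log2 fold change from CS to SD correlated with the GC content of the transcript (Spearman's rho 0.729 over genes, which are not independent), and the 3 members that fell have the lowest GC content of the 8. After a per-library correction for GC content and length, Hdac9 (−0.54, adjusted p = 0.0012), Mef2c (−0.37, adjusted p = 0.0056), Hdac5 (0.49, adjusted p = 0.0266) and Mef2a (−0.30, adjusted p = 0.0336) were called with smaller changes, beside 20.3% of all genes, and Mef2d was not (0.10, adjusted p = 0.318). Without WT CS library 2 the changes were −0.76 for Hdac9, −0.69 for Mef2c, −0.51 for Mef2a and 0.72 for Hdac5, all still called, and 0.28 for Mef2d, not called. Mef2d was also lost without WT CS library 5.

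Markers of red blood cells, meningeal fibroblasts and other cell types moved in the same comparison. The summed level of red blood cell genes went from 28.2 to 118 in WT CS to 97.9 to 285 in WT SD, with 5 of 5 higher, and that of meningeal fibroblast genes from 10.7 to 48.0 to 57.4 to 92.9, with 4 of 6 higher. No marker of either list was at 0 in any library, and their part in the members' changes was not tested. Of 6 excitatory neuron markers 1 rose and 1 fell, and of 6 endothelial markers 1 rose and 2 fell. Of 6 astrocyte markers 3 rose and 0 fell, and of 6 inhibitory neuron markers 2 rose and 0 fell. Among 6 pericyte and smooth muscle markers 2 rose and 1 fell. Oligodendrocyte and microglial markers each had 1 of 6 higher and 1 lower. The part of these lists was not tested either.

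The second comparison asked what remained after 2 hr of recovery sleep. In WT RS, 3 of 8 members differed from CS where 17.5% of all genes did (9.28% higher and 8.22% lower, or 18.4% and 2.47% with CPM as deposited and 1.53% and 3.55% after the GC and length correction). Hdac5 was higher (0.95 ± 0.26, adjusted p = 0.0362), and Mef2c (−0.63 ± 0.16, adjusted p = 0.0350) and Hdac9 (−0.56 ± 0.14, adjusted p = 0.0345) were lower. Mef2a (−0.46, adjusted p = 0.123), Mef2d (0.28, adjusted p = 0.0682), Hdac7 (0.15, adjusted p = 0.567), Hdac4 (−0.13, adjusted p = 0.457) and Mef2b (0.08, adjusted p = 0.603) did not pass. For every member the RS and CS libraries overlapped, against 3.72% of genes that did not.

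These 3 calls were near the threshold. Each was made in 5 of 13 fits that left out a library, and was lost without WT CS library 1, 2 or 3 or WT RS library 3, 4, 5, 6 or 12. The changes themselves stayed between 0.72 and 1.08 for Hdac5, −0.71 and −0.53 for Mef2c and −0.63 and −0.47 for Hdac9. Over all genes, 0% were called without WT CS library 3 or WT RS library 3, 5, 6 or 12, and 29.2% without WT RS library 1. Without WT CS library 2 the adjusted p was 0.0561 for Mef2c, 0.0554 for Hdac5 and 0.0558 for Hdac9. After the GC and length correction Hdac5 (0.56) and Hdac9 (−0.32) were called and Mef2c was not (−0.31, adjusted p = 0.055). Both contrasts use the same 6 CS libraries, so that the likeness of their values is not a second observation. Of 5 red blood cell markers 3 were higher in WT RS than in CS, with summed levels of 85.3 to 139, and their part was not tested.

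Set directly against each other, WT SD and WT RS gave no call for any of the 8 members with limma, edgeR or DESeq2. With limma 0 had an unadjusted p under 0.05, where 683 of all 12921 genes had one of at most 0.05. At the threshold for calls limma passed 0.0232% of all genes. The estimates were 0.29 for Hdac9, 0.20 for Mef2a and 0.16 for Mef2c, with adjusted p of at least 0.969 for all 8. That does not show that the members were alike in SD and RS.

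**Figure D3:**
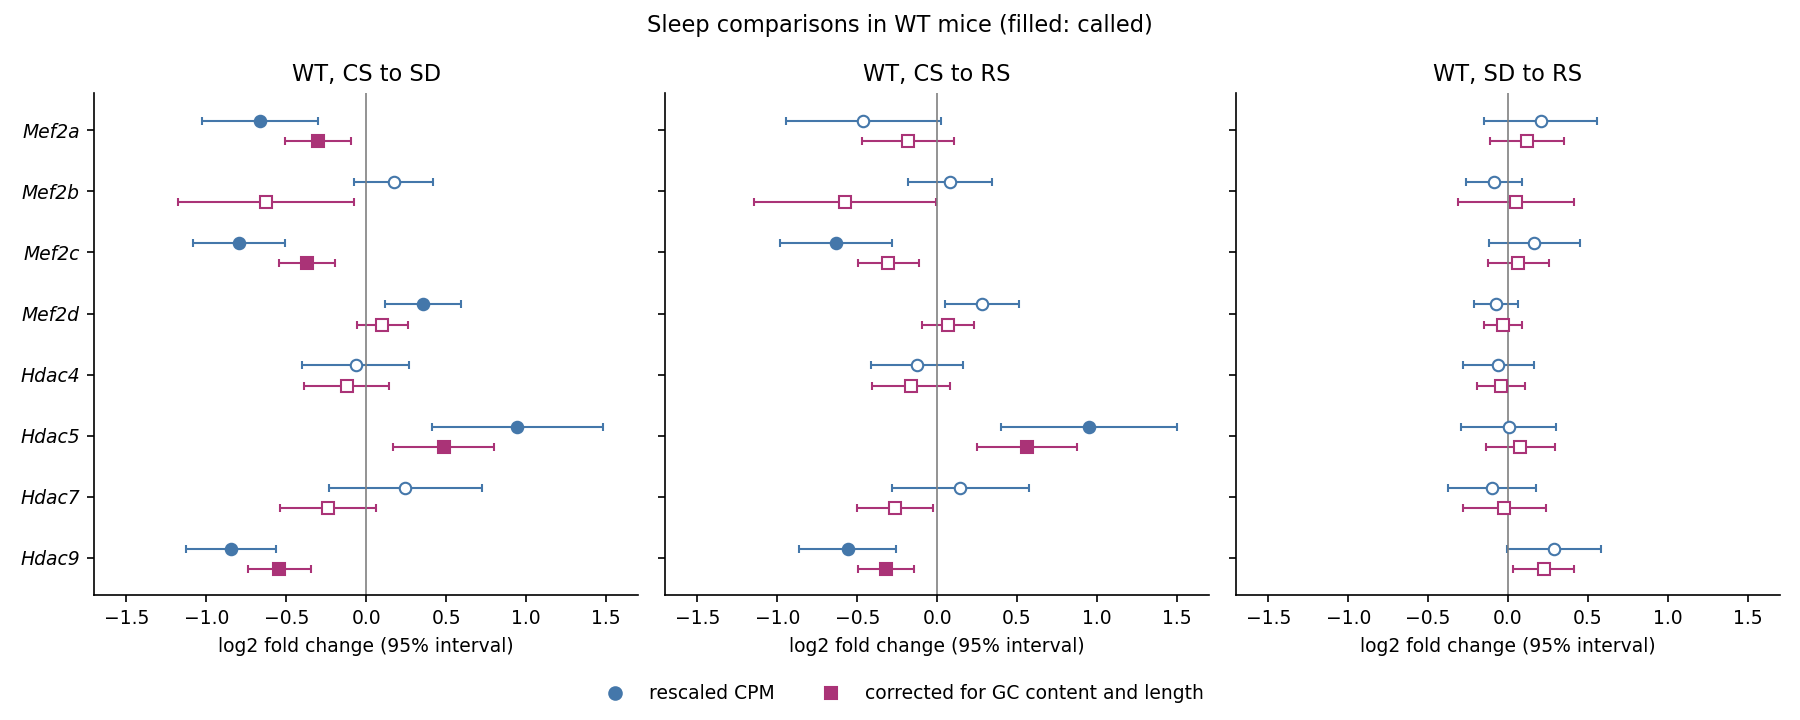
Log2 fold changes of the 8 members for WT CS to SD, CS to RS and SD to RS with 95% confidence intervals from limma, with (squares) and without (circles) correcting each library for GC content and length, and filled where called. From CS to SD, Mef2a, Mef2c and Hdac9 lie below 0 and Hdac5 above 0 both ways, whereas Mef2d moves from 0.35 to 0.10.

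In mice with the floxed allele, the same deprivation was compared without and with Cre. From CS to SD in Mef2c f/f, limma and edgeR called none of the 7 members tested. With limma 1 had an unadjusted p under 0.05, where 2111 of all 12410 genes had one of at most 0.05. At the threshold for calls limma passed 0.0403% of all genes (5 of 12410). DESeq2 called Hdac7, where it called 467 genes of the whole table. Hdac7 gave the largest change against its error (−0.30 ± 0.07, adjusted p = 0.126 with limma, and −0.31, adjusted p = 0.0079 with DESeq2), and its CS and SD libraries did not overlap, as was so for 17.4% of genes. Mef2c gave 0.14 (adjusted p = 0.505), Hdac5 −0.20 (adjusted p = 0.515) and Hdac9 −0.49 (adjusted p = 0.340), the last becoming −0.23 without Mef2c f/f CS library 3, the high one.

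In Mef2c-cKO, none of the 7 members was called from CS to SD by limma, edgeR or DESeq2. With limma 0 had an unadjusted p under 0.05. At the threshold for calls limma passed 0.0234% of all genes. Mef2c gave −0.09, Hdac9 0.05 and Hdac7 −0.03, each with an adjusted p of 0.998. Tested directly, the difference between the responses of Mef2c-cKO and Mef2c f/f was called for no member (limma, adjusted p of 0.698 to 0.978). With limma 0 members were at an unadjusted p under 0.05. At an adjusted p no larger than 0.05, 0.00778% of all genes passed. Neither edgeR nor DESeq2 called a member. With 3 or 4 libraries a group, the intervals leave room for sizeable changes.

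Whether Mef2c f/f mice responded to SD as WT mice did was also tested as a difference of differences. That cancels a constant shift between the cohorts, but not a response that differs with the cohort. Cohort and genotype can thus not be told apart here either. Over genes, Spearman's rho of the log2 change with GC content was 0.729 in WT, −0.317 in Mef2c f/f and −0.768 for the difference of responses. Mef2c (0.93 ± 0.20, adjusted p = 0.0180) and Hdac5 (−1.14 ± 0.38, adjusted p = 0.0495) passed, where 15.1% of all genes did (9.35% with a higher response in Mef2c f/f and 5.78% with a lower one, 3.87% and 22.3% with CPM as deposited, and 1.67% and 0.570% after the GC and length correction). Mef2a (0.75, adjusted p = 0.0512), Mef2d (−0.40, adjusted p = 0.0982), Hdac7 (−0.54, adjusted p = 0.210), Hdac9 (0.35, adjusted p = 0.340) and Hdac4 (−0.12) did not with limma. Without WT CS library 2, Mef2a passed as well (0.59, adjusted p = 0.0361) beside Mef2c (0.83) and Hdac5 (−0.91). Mef2a was also called by edgeR (0.80, adjusted p = 0.0473) and DESeq2 (0.83, adjusted p = 0.0224), and Mef2d with CPM as deposited (−0.66, adjusted p = 0.0328). For Mef2c and Hdac5 the WT change and the Mef2c f/f estimate had opposite signs. After the GC and length correction neither passed (Mef2c 0.41, adjusted p = 0.0801, and Hdac5 −0.61, adjusted p = 0.138), and edgeR did not call Hdac5 (adjusted p = 0.0596). Leaving out 1 library at a time, Mef2c passed in 18 of 20 fits and was lost without Mef2c f/f SD library 1 or 3, while Hdac5 passed in 6 of 20. The share of all genes that passed went from 15.1% to 0.175% without Mef2c f/f SD library 3, 0.701% without Mef2c f/f SD library 1 and 25.2% without WT CS library 6.

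Markers moved with this difference of responses too. Red blood cell genes were lower in 5 of 5 (median −2.62) and meningeal fibroblast genes in 3 of 6 (median −1.20), and their part in the members' values was not tested.

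The last question was what differed between Mef2c-cKO and Mef2c f/f within a sleep condition. Hdac7 was lower in the knockout in both. In CS it was at 0.549 of the floxed level (log2 fold change −0.87 ± 0.12 SE, adjusted p = 0.00662, limma), the 1 call among 7 members where 7.67% of all genes were called (3.17% higher and 4.5% lower, or 6.96% and 2.73% with CPM as deposited and 3.49% and 8.29% after the GC and length correction). Its floxed and knockout libraries did not overlap, as was so for 26.9% of genes. The call held in each of 7 fits that left out a library and under each alternative of processing that was run.

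In SD, Hdac7 was at 0.661 of the floxed level (−0.60 ± 0.13, adjusted p = 0.0201), again the 1 call among the 7, where 15.1% of genes were called (9.1% higher and 5.99% lower, 13.3% and 3.85% with CPM as deposited, 6.45% and 8.51% after the GC and length correction, and 5.46% and 5.71% after quantile normalization). Non-overlap was common in this comparison, at 40.3% of genes. This call was weaker than that in CS. It was lost in 1 fit over all 7 groups (adjusted p = 0.18) and when any 1 of the 3 Mef2c f/f SD libraries was left out. Its estimate was still −0.60 in that fit and lay between −0.71 and −0.44 when a library was left out.

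Endothelial markers were set beside Hdac7 because that cell type also uses the gene. Their summed level was 149 to 194 in Mef2c f/f CS and 136 to 170 in Mef2c-cKO CS, with 0 of 6 higher and 1 lower, and 147 to 161 in Mef2c f/f SD and 138 to 149 in Mef2c-cKO SD, with 1 higher and 1 lower. None was at 0 in any library. Microglial markers reached 136.8 to 158 in Mef2c f/f CS and 163 to 436 in Mef2c-cKO CS, and 4 of 6 were higher in Mef2c-cKO SD. Astrocyte markers ranged from 912 to 967 in Mef2c f/f CS and from 1098 to 2767 in Mef2c-cKO CS, with 1 of 6 higher. Red blood cell genes were lower in 2 of 5 and meningeal fibroblast genes higher in 2 of 6 in CS, and in SD excitatory neuron markers were lower in 2 of 6 and inhibitory neuron markers higher in 3 of 6. Choroid plexus markers ranged from 5.34 to 318 in Mef2c-cKO CS against 3.73 to 13.8 in Mef2c f/f CS. The upper ends in Mef2c-cKO CS came from the highest library, far above the rest of its group. The sums were 1655 ± 963 (SD, n = 3) for astrocyte, 265 ± 149 for microglial and 110 ± 180 for choroid plexus markers. In Mef2c-cKO SD 2 of 6 astrocyte markers and 2 of the 3 choroid plexus markers tested were also higher. Astrocyte sums there were 1169 to 1295 against 983 to 1000 in Mef2c f/f SD. Choroid plexus sums were 6.83 to 21.3 against 5.14 to 9.09. The part of these markers in the Hdac7 difference was not tested.

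Mef2c itself, counted over the whole gene, gave 0.27 (adjusted p = 0.382) in CS and 0.05 (adjusted p = 0.820) in SD between Mef2c f/f and Mef2c-cKO. Hdac4 gave −0.37 in CS, which limma did not call (adjusted p = 0.115) and DESeq2 did (−0.40, adjusted p = 0.043). DESeq2 called 2095 genes of the whole table in that comparison, against 973 with limma. Hdac5 gave 0.23 in SD (adjusted p = 0.117), and without Mef2c-cKO SD library 6 both Hdac5 and Hdac9 were called beside Hdac7. With limma no MEF2 factor was called between the genotypes in either condition.

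**Figure D4:**
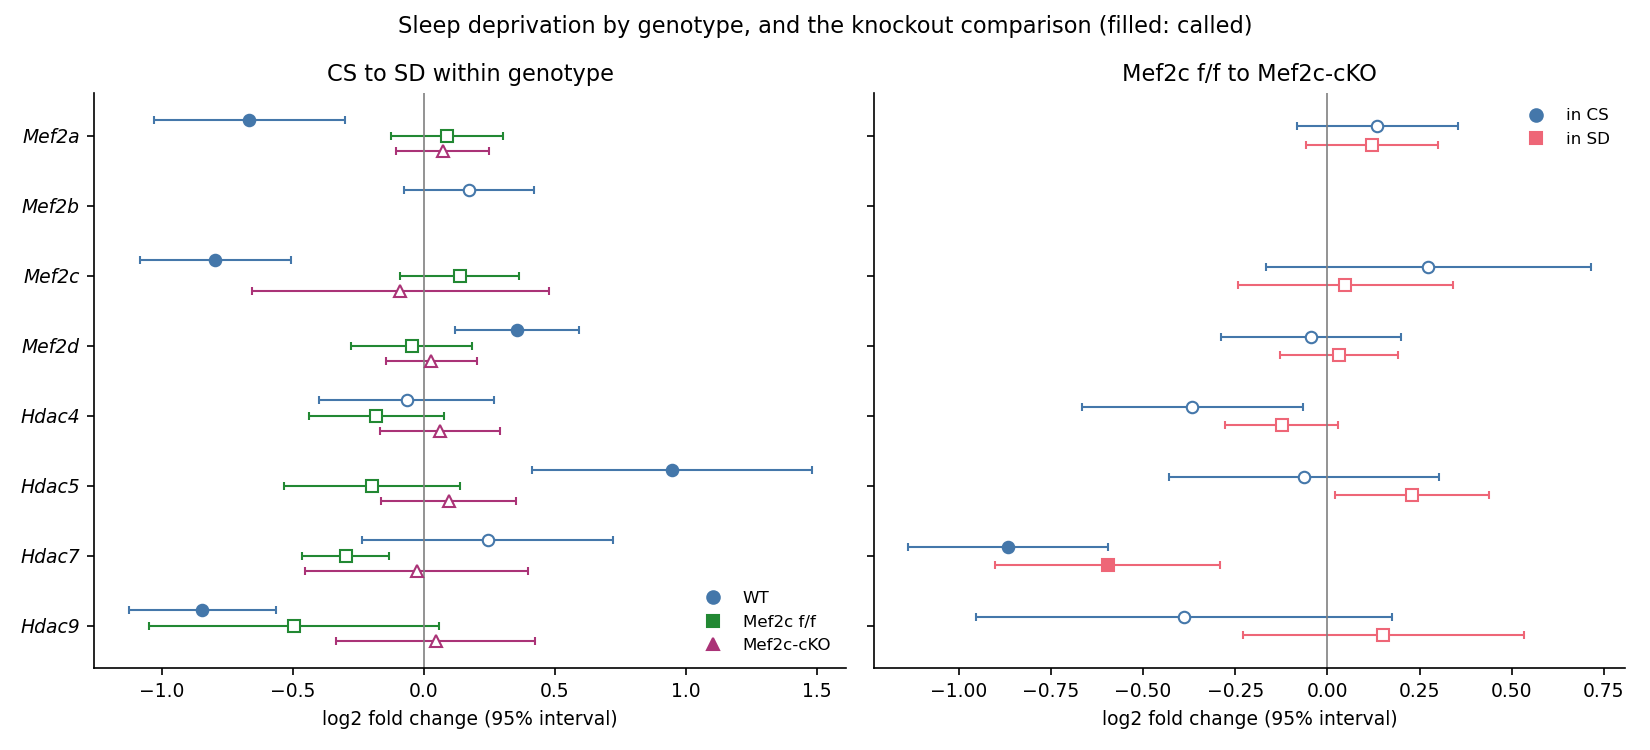
Left, log2 fold changes of the members from CS to SD in WT, Mef2c f/f and Mef2c-cKO mice, and right, from Mef2c f/f to Mef2c-cKO in CS and in SD, with 95% confidence intervals from limma and filled symbols where called (Mef2b was tested in WT alone). Hdac7 lies apart from 0 in both conditions on the right (−0.87 and −0.60), and every interval of the Mef2c-cKO response on the left includes 0.

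The partners of the families were taken as 59 further genes in 8 lists. From CS to SD in WT mice, 18 rose and 15 fell, where 45.1% of all genes were called, and after the GC and length correction 7 rose and 6 fell. Their median log2 fold change was 0.01, against 0.04 for all genes. Of 16 kinases that phosphorylate class IIa deacetylases or activate such kinases, 6 rose and 5 fell. Camkk1, which activates the CaM kinases I and IV, rose by 0.78 on the log2 scale (adjusted p = 0.00447) and the salt-inducible kinase Sik1 by 0.59 (adjusted p = 0.00356), whereas Camk4, a nuclear CaM kinase, fell by 0.77 (adjusted p = 0.00117) and the protein kinase D gene Prkd3 fell by 0.43 (adjusted p = 0.0174).

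Of 7 genes of calcineurin and its regulators 4 fell and 0 rose, with a median of −0.43, where 20.5% of all genes fell and 24.6% rose. Among those that fell were Ppp3ca, its main catalytic subunit in brain (−0.51, adjusted p = 0.00492), and Rcan2, a regulator that binds it (−0.46, adjusted p = 0.00246). Values of single lists and named partners are without the GC and length correction, after which 6 of all 59 partners fell. Of 8 genes for kinases that act on MEF2 proteins or for activators of such kinases, 5 rose and 1 fell. Those that rose included Map2k3, an activator in the p38 pathway (0.65, adjusted p = 0.0118), and Mapk7, which encodes ERK5 (0.44, adjusted p = 0.0356). The 1 that fell was Map2k5, the ERK5 activator (−0.39, adjusted p = 0.0155). Of 6 genes for 14-3-3 proteins, Ywhag rose (0.59, adjusted p = 0.00908) and no other was called.

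The acetyltransferase gene Kat2b fell (−0.32, adjusted p = 0.0403), 1 of 3 coactivators. Of 6 other deacetylases Hdac11 rose (0.48, adjusted p = 0.0238) and Hdac8 fell (−0.67, adjusted p = 0.00205). Of 7 known MEF2 target genes of neurons 4 rose, led by the immediate early genes Arc (1.18, adjusted p = 0.00137) and Nr4a1 (0.78, adjusted p = 0.0116), and 1 fell, the protocadherin Pcdh10 (−0.34, adjusted p = 0.0262). The immediate early genes also respond to other transcription factors.

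After recovery sleep 5 of 59 partner genes were higher and 9 lower than in CS, where 9.28% and 8.22% of all genes were, or 2 and 3 after the correction, where 1.53% and 3.55% were. Before the correction calcineurin genes were lower in 4 of 7 and higher in 0, as in SD and against the same controls. Among the kinases Camk4 was at −0.62 and Camk1g, a membrane-bound CaM kinase, at 0.53, and Ywhag was at 0.56. From WT SD to WT RS 0 of 59 were called with limma, where 0.0232% of all genes were. From CS to SD 0 of 59 were called in Mef2c f/f and in Mef2c-cKO, where 0.0403% and 0.0234% of all genes were. From CS to SD the median of the known MEF2 targets was 0.45 in WT, 0.32 in Mef2c f/f and 0.38 in Mef2c-cKO. Medians of the other lists lay between −0.43 and 0.35 in WT, −0.08 and 0.11 in Mef2c f/f and −0.06 and 0.04 in Mef2c-cKO. These medians were not tested.

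Between Mef2c f/f and Mef2c-cKO, 0 of 59 partner genes were higher and 5 lower in CS, where 3.17% and 4.5% of all genes were. After the GC and length correction 0 and 9 were, where 3.49% and 8.29% of all genes were. In SD 1 was higher and 6 lower, where 9.1% and 5.99% of all genes were. After the correction 1 and 11 were, where 6.45% and 8.51% of all genes were. Rcan2 was lower in both (−0.75, adjusted p = 0.00407 in CS, and −0.70, adjusted p = 0.00146 in SD). In SD the largest falls among the kinases were those of Camkk2 (−0.68, adjusted p = 0.0136) and Camk4 (−0.64, adjusted p = 0.00218). As a difference of responses between Mef2c f/f and WT, 7 of 59 partners passed, where 9.35% of all genes did, with a higher response in Mef2c f/f, among them Camk4 (1.08) and the synaptic scaffold gene Homer1 (1.19), and 1 with a lower one, Map2k3 (−1.004). After the GC and length correction 1 and 0 passed, where 1.67% and 0.570% of all genes did.

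**Figure D5:**
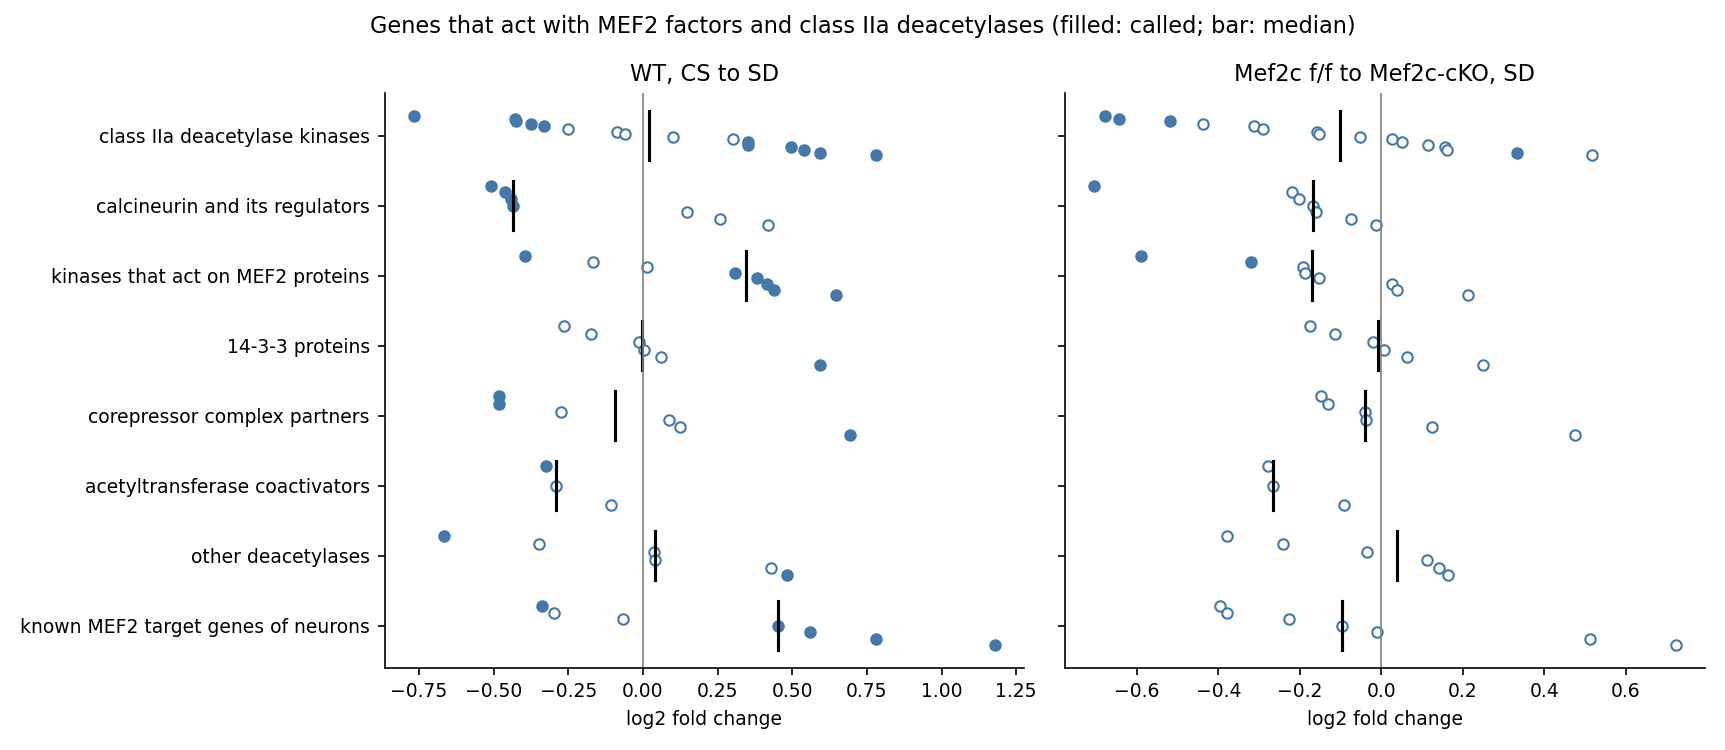
Log2 fold changes of the 59 partner genes by list, left from CS to SD in WT mice and right from Mef2c f/f to Mef2c-cKO in SD, with called genes filled and a bar at each list's median. On the left 4 of 7 calcineurin genes lie below 0 and are called (list median −0.43), and on the right 1 called gene is above 0 and 6 are below. Both panels are without the GC and length correction, and on the left 20.5% of all genes were called lower.

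Across all 33 libraries, members went together or apart, for some pairs much less so after the GC and length correction. The pairs given here are examples. Pearson's r of log2 levels was −0.84 for Mef2a and Hdac5 and −0.70 after the GC and length correction, and 0.74 for Hdac4 and Hdac7 and 0.72 after it. By contrast r was −0.66 for Mef2c and Hdac5 and −0.06 after the correction, and 0.59 for Mef2c and Mef2a and 0.04 after it. The libraries share depth, cohort and composition, so these values are descriptions.

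The genes whose levels over the 33 libraries were most like a member were Adam10 (r = 0.918), Ipcef1 (0.905) and Pgm2l1 (0.894) for Mef2c, Prpf39 (0.962), Cr1l (0.956) and Ccdc88a (0.956) for Mef2a, and Phf2 (0.880), Cherp (0.861) and Cntfr (0.847) for Mef2d. For the deacetylases they were Kcnb2 (0.956), Csgalnact1 (0.952) and Gmds (0.947) for Hdac9, Sema6b (0.975), Lrrc14 (0.969) and Gtpbp6 (0.969) for Hdac5, Rbfox2 (0.939), Snx29 (0.917) and Ubac2 (0.912) for Hdac4, and Vwa5b2 (0.923), Tom1l2 (0.908) and Cables1 (0.907) for Hdac7. Of these 21 genes, 3 were again among the nearest when the 20 WT libraries alone were used, and 6 after the GC and length correction.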

How the data were processed

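RNA of mouse frontal cortex was sequenced by the authors from stranded, poly(A)-selected libraries as paired-end reads, which they trimmed, aligned to mm10 with STAR and counted per gene with HTSeq, unique reads only. The deposited table holds CPM per gene and library (edgeR, by the authors). All 711645 values (100%) were whole reads within 0.01 when divided by the value of 1 read, which gave the depths. Each library's CPM were rescaled by a median-of-ratios factor (11570 genes) and tested as log2(rescaled CPM + 0.5) with limma 3.58.1 (R 4.3.3, trend), compared groups alone, on genes that reached a CPM of 1 in each replicate of a compared group, with Benjamini-Hochberg adjustment over those genes. Fold changes on this scale understate the change of low genes. Calls needed an adjusted p no larger than 0.05 with a log2 change of 0.3 or more either way, and differences of responses the adjusted p alone. edgeR 4.0.16 (quasi-likelihood) and DESeq2 1.42.0 were run on the recovered reads as alternatives, beside other pseudocounts, filters, scalings and a per-library removal of spline trends on GC content and length. Replicates differed by more than sampling noise (chi-square per degree of freedom 12.3 to 539 over 72 pairs). Members and partner lists were chosen with earlier results of these data known. Named partner genes are the 2 called genes that rose most and the 2 that fell most per list, where there were so many, and for each member the 3 genes of highest r. The fits were tested on simulated counts with the same spread for every gene and no GC trend, unlike these data. That test therefore does not cover such a trend. WT and floxed levels were not tested against each other. Single genes of the corepressor list are not reported here.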

Additional observations from a re-analysis of the deposited data

Results flagged for a closer look

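In 3 of 31 groups of 4 to 10 libraries that were checked, a single library stood apart from its group by Dixon's ratio, which chance alone gives in about 1 in 20 groups. Mef2a was at 456 rescaled CPM in WT RS library 1 (ratio 0.617), Mef2d at 126 in WT SD library 2, the lowest there (0.618), and Hdac9 at 536 in Mef2c f/f CS library 3 (0.880). The response to SD differed between Mef2c f/f and WT mice by 0.93 on the log2 scale for Mef2c and by −1.14 for Hdac5 (limma, adjusted p = 0.0180 and 0.0495). Cohort and genotype cannot be told apart in this difference.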

How the results depend on the processing

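Of 1449 values of members under other settings, 1306 kept their direction and side of the threshold, 63 lost and 22 gained the call, and 58 changed sign, none of them called. Counts of members called that moved by over 1.5 times were 0 from WT CS to RS with no filter (0 to 4 leaving out 1 library), 1 from CS to SD in Mef2c f/f with DESeq2 (Hdac7), 2 from Mef2c f/f to Mef2c-cKO in CS with DESeq2 (Hdac4 and Hdac7), 0 in SD in 1 fit over all 7 groups (0 to 3 leaving out 1 library), and, for the response of Mef2c f/f against WT, 1 with pseudocount 0.1, 1 with no filter and 0 after the GC and length correction (0 to 3 leaving out 1 library). For that response, a filter chosen after seeing the data (every compared library above 0) gave the same count of members. With smaller moves, Mef2b was called in addition from WT CS to SD with CPM as deposited. From WT CS to RS, Mef2d was with CPM as deposited, Mef2a in 1 fit over all groups, and Mef2d in place of Mef2c after quantile normalization. For the response of Mef2c f/f against WT, Mef2a was called in addition with DESeq2 and with a CPM of at least 5, and in place of Hdac5 with edgeR, and Mef2d in addition with CPM as deposited. Of the 21 genes most like a member, 3 were found again in WT libraries alone and 6 after the correction. The causes were not tested.

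Same-numbered libraries were not taken as paired, since in every comparison at least 1 pair had a correlation under 0.1: the correlation of their deviations was −0.33 to 0.55 in WT CS and SD, 0.07 to 0.67 in CS and RS and −0.73 to 0.33 in SD and RS, 0.05 to 0.26 in Mef2c f/f and 0.07 and 0.15 in Mef2c-cKO. With the replicate number as a block, 1 member was called from WT CS to SD (Mef2c) and 0 for the response of Mef2c f/f against WT, and genes called went from 5826 to 287 and from 1983 to 0, and from 2232 to 4279 from WT CS to RS, where Mef2a was called in addition (−0.43, adjusted p = 0.0442). The changes from WT CS to SD that lost the call with the block were −0.93 for Hdac9 (adjusted p = 0.0509), 1.02 for Hdac5 (0.0538), −0.73 for Mef2a (0.0604) and 0.28 for Mef2d (0.0687). In these blocked fits Mef2d gave 0.030 from CS to SD in Mef2c f/f, Mef2c 0.18 and Hdac7 0.021 from CS to SD in Mef2c-cKO, and Mef2a 0.027, Mef2c 0.072 and Mef2d −0.024 for the difference between those responses. No block could be set between Mef2c f/f and Mef2c-cKO, which share too few numbers.

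Other values with a changed sign were, after the GC and length correction, for Mef2b −0.63 (WT CS to SD), −0.58 (CS to RS) and 0.050 (SD to RS), for Hdac7 −0.24 (CS to SD) and −0.26 (CS to RS), for Mef2d 0.038 (Mef2c f/f CS to SD) and −0.029 (Mef2c f/f to Mef2c-cKO in SD), for the response of Mef2c-cKO against Mef2c f/f 0.063 (Mef2a) and −0.011 (Mef2d), and for that of Mef2c f/f against WT 0.030 (Hdac4) and 0.012 (Hdac7). Quantile normalization gave −0.059 (Mef2b) and 0.088 (Hdac4) from WT CS to SD, −0.11 (Mef2b) from CS to RS, −0.028 (Hdac5) from SD to RS, 0.000784 (Hdac7) from CS to SD in Mef2c-cKO and 0.031 (Mef2d) from Mef2c f/f to Mef2c-cKO in CS. CPM as deposited gave 0.21 and 0.063 for Hdac4 (WT CS to SD and to RS), −0.081 for Hdac5 (SD to RS), and 0.059 for Mef2d and 0.041 for Hdac5 (Mef2c f/f to Mef2c-cKO in CS).

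Leaving out 1 library at a time, values crossed 0 for Hdac4 from WT CS to SD (−0.16 to 0.019) and SD to RS (−0.11 to 0.0078), Hdac7 from CS to RS (−0.043 to 0.27), Hdac5 from SD to RS (−0.084 to 0.072) and Mef2d from CS to SD in Mef2c f/f (−0.12 to 0.030). In Mef2c-cKO from CS to SD they did for Mef2c (−0.36 to 0.069), Mef2d (−0.0067 to 0.084), Hdac4 (−0.018 to 0.13), Hdac7 (−0.14 to 0.13) and Hdac9 (−0.093 to 0.23). Between Mef2c f/f and Mef2c-cKO they did for Mef2d (−0.12 to 0.033) and Hdac5 (−0.19 to 0.059) in CS, for Mef2c (−0.054 to 0.16) and Mef2d (−0.0039 to 0.087) in SD, and for Mef2a (−0.056 to 0.048) and Mef2d (−0.00096 to 0.15) in the difference of responses.

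Genes called over the whole table moved by over 1.5 times as follows. From WT CS to SD they went from 5826 to 2522 after the GC and length correction. From CS to RS they went from 2232 to 385 with no filter, 624 after the correction, 3420 with DESeq2 and 4709 in 1 fit over all groups. In WT SD to RS they went from 3 to 54 with DESeq2, in Mef2c f/f from 5 to 467 (125 after the correction), in Mef2c-cKO from 3 to 25, and for the difference of those responses from 1 to 59. Mef2c f/f to Mef2c-cKO gave 973 in CS against 2095 with DESeq2, 1491 after the correction and 1642 in 1 fit, and 1927 in SD against 690 in 1 fit and 1280 with a CPM of at least 5. The response of Mef2c f/f against WT gave 1983, against 283 after the correction, 1142 with no filter, 3426 with CPM as deposited and 3019 in 1 fit. Leaving out 1 library gave 0 to 3740 from WT CS to RS, 0 to 9 from SD to RS, 0 to 590 in Mef2c f/f, 1 to 3 in Mef2c-cKO, 171 to 875 and 822 to 2447 from Mef2c f/f to Mef2c-cKO in CS and SD, 23 to 3300 for the response of Mef2c f/f against WT and 1 to 2 for that of Mef2c-cKO against Mef2c f/f. Mef2b and Hdac7 rest on the fewest reads of the members.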
